A study of Mus musculus with 6 samples.

Results

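A set of 10 cytoskeletal genes was followed by symbol through the count table: the cytoplasmic actins Actb and Actg1, the smooth muscle actin Acta2, the calponin-family genes Tagln and Tagln2, the myosin light chain Myl9, the tropomyosins Tpm1, Tpm2 and Tpm4, and the intermediate filament gene Vim. All 10 were among the 54532 genes in the table, and 7 of them had enough reads to be tested, among 13290 genes tested in all. RNA sequencing had been done on L929 cells, a wild-type mouse fibroblast line widely used to study killing by tumour necrosis factor. The 3 treated libraries came from cells given TNF-α at 10 ng/ml together with actinomycin D at 1 µg/ml for 12 hours, and the 3 control libraries from cells labelled as controls. TNF-α is a cytokine of inflammation that can trigger cell death, and actinomycin D is a DNA-binding drug that stops RNA synthesis. No group received either agent alone, so their effects cannot be told apart. Whether each library stands for its own culture is not said in the labels, so every p-value reflects library-to-library spread that may be technical only.

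Actin monomers assemble into filaments that carry force and give a fibroblast its shape, and tropomyosins lie along these filaments and control which motors and severing proteins reach them. Vimentin forms a separate filament network that is typical of mesenchymal cells. In cells that are pulling on their surroundings, free actin falls and the myocardin-related cofactors enter the nucleus, where they switch on actin and contractile genes with serum response factor. That factor binds a short element, the CArG box, found before many genes of this group.

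The sequence upstream of the RefSeq start of the genes was searched for exact matches to this element. RefSeq promoter entries on the mouse build GRCm38.p6 were available for 8 of the 10 members, all but Actb and Tagln. In the 250 bases before the RefSeq start, searched on both strands, 2 of the 8 held an exact CArG box. The share was 1.47% among 32851 promoters of the same length. The motif TATAAA was in 1 of the 8, Vim, and in 12.4% of those promoters. Near matches, such as ccctatatgg in the Acta2 window, were not counted, so an absence here is of the exact motif only. The RefSeq start can differ from the gene boundary in the count table. The Vim and Tpm4 windows lie inside the gene as tabled there, and most of the Tpm1, Tpm2 and Tagln2 windows do too. The 3 sequences below were chosen as both members with a CArG box, Actg1 and Myl9, and the member with the highest fold change, Tpm2, in whose window no CArG box was found. They run 5′ to 3′ on the strand of the gene, from chr11:120348496-120348745 (minus strand), chr2:156775214-156775463 (plus strand) and chr4:43523555-43523804 (minus strand), and capitals mark the CArG box.
Actg1: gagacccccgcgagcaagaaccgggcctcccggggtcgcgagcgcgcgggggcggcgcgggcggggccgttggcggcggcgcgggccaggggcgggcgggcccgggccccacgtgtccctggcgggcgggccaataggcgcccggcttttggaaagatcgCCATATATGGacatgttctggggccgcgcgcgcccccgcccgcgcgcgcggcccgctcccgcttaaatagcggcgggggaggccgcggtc
Myl9: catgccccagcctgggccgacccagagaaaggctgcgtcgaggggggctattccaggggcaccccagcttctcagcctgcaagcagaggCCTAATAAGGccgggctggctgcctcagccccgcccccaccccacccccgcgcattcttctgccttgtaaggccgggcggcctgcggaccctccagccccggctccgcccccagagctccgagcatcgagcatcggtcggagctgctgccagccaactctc
Tpm2: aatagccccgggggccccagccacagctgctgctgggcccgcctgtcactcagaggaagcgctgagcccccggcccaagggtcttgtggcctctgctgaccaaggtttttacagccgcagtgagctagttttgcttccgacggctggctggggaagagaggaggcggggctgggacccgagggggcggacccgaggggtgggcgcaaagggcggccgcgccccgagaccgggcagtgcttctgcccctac
The first base of the box lay 90 bases before the RefSeq start in Actg1 and 161 bases before it in Myl9. A match is a description of the letters and not of binding.

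Depth was close to even, at 16448477 to 17705511 counts in treated and 16056207 to 18036322 in control libraries, but the treated libraries were less complex, with 15705 to 18849 genes with a count, against 19219 to 20116 in control libraries. Counts were scaled by edgeR's trimmed mean of M-values (TMM), whose factors were 0.640 to 0.797 in treated and 1.34 to 1.53 in control libraries, so a direction on this scale is one relative to most other genes. Total RNA per cell was not measured. Beside the 10 members, 7 of 8 fibroblast markers were tested, and their summed level was 10773 to 13237 TMM-scaled CPM (counts scaled to a common library size) in treated and 3665 to 4676 in control libraries; Thy1 had 0 reads in treated and 6 in control libraries. That sum is mostly collagen and Fn1, and the markers did not move as a group: the receptors Pdgfra and Pdgfrb averaged 6.09 and 39.7 CPM in treated and 18.6 and 75.7 CPM in control libraries. Of 6 smooth muscle markers only Des and Smtn were tested, with summed levels over the list of 96.2 to 137 CPM in treated and 79.6 to 105 CPM in control libraries. Des, at 79.7 CPM in treated and 18.7 in control libraries, was called higher and Smtn, at 30.7 CPM in treated and 70.8 in control libraries, lower by edgeR, and the defining genes Myh11, with 10 reads in treated and 0 in control libraries, and Myocd, with 1 read in each group, were near 0. None of the 5 epithelial and 4 endothelial markers listed was tested, and Epcam and Kdr were at 0. The keratin Krt14, which is not among those 5, was tested and is given below. Macrophage markers summed to 43.9 to 55.4 CPM in treated and 3.88 to 4.80 in control libraries, mostly from Cd68 and Lyz2, while Ptprc and Adgre1 had 0 reads in treated and 1 read in control libraries; their part in the member results was not tested. In these bulk libraries, fewer cells of a kind and less RNA per cell cannot be told apart.

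On the TMM scale, all tested members but Actb were called higher in treated cells. Most of those called higher lost that direction under other scalings given below. The 3 members not tested, Acta2, Tagln and Myl9, were near 0 in both groups. By the edgeR quasi-likelihood test, with p-values adjusted by Benjamini-Hochberg over all genes tested, 6 of the 7 tested members rose (Actg1, Tagln2, Tpm1, Tpm2, Tpm4 and Vim), none fell, and Actb missed the threshold of 0.05. Among all genes tested, 34.6% were called higher and 40.2% lower, 74.8% in all. The median log2 fold change was 1.36 over the 7 tested members and −0.18 over all genes tested. The order by fold change was Tpm2, Tpm1, Vim, Tagln2, Tpm4, Actg1 and Actb. With a gene length correction Tpm1 was highest and Actg1 stood above Tpm4, and without treated replicate 3 or control replicate 1 Tagln2 stood above Vim; scaling whole libraries shifts all genes nearly alike and so hardly bears on the order. Libraries of the 2 groups did not overlap for 6 of the 7, against 77.9% of all genes tested, 35.9% in the higher and 42% in the lower direction.

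**Figure D1:**
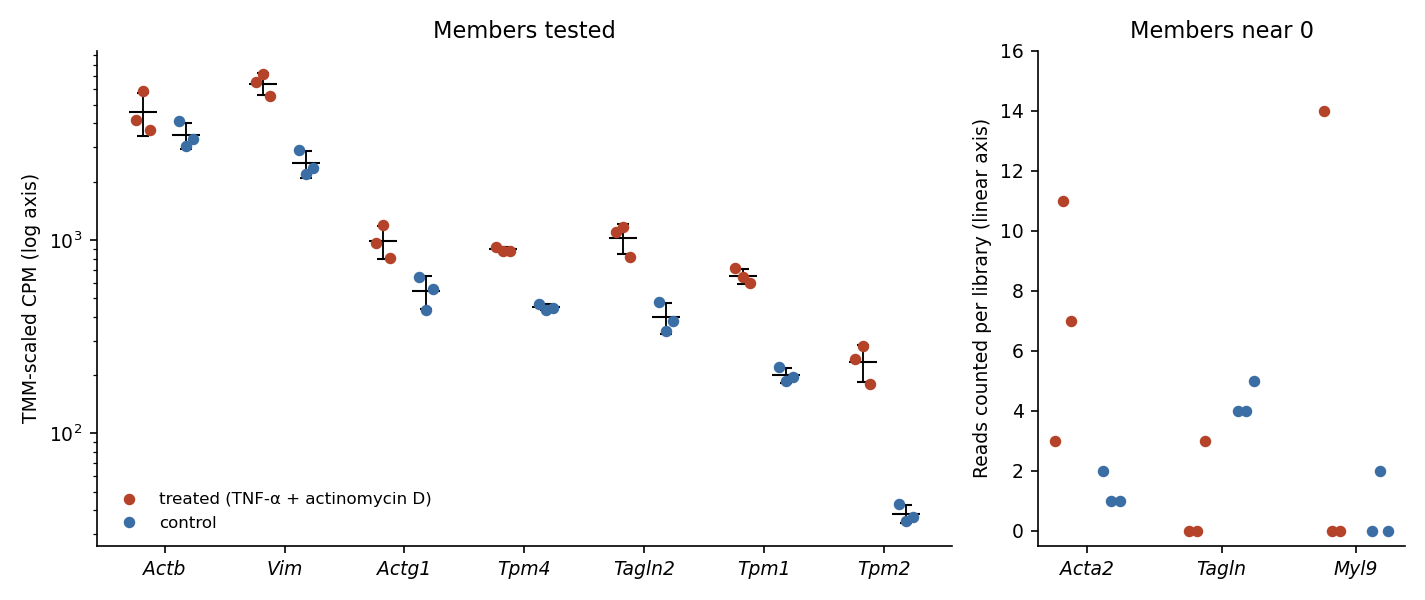
Left, TMM-scaled CPM (log axis) of the 7 members tested in each treated and control library, with the mean and SD of 3 libraries; right, reads counted per library (linear axis) for the 3 members not tested. Only Actb has overlapping groups on the left, and no library on the right exceeds 14 reads.

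The cytoplasmic actins had the smallest fold changes of the tested members. Actb (chr5:142903115-142906754, GRCm38, minus strand), whose product makes most of the actin of non-muscle cells and whose mRNA is a common reference in expression assays, had 4179, 5866 and 3703 CPM in treated and 4095, 3036 and 3314 CPM in control libraries. Treated replicate 2 was the highest of the 6, and treated replicate 3 lay below control replicate 1. Its log2 fold change was 0.40 ± 0.22 (SE), with an adjusted p of 0.129 by edgeR. This miss is close to the threshold: the adjusted p was 0.028 without treated replicate 3, at a log2 fold change of 0.50, and 0.588 without treated replicate 2, at 0.11.

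As a plain share of all counts, Actb went the other way from its TMM level. It took 0.267%, 0.386% and 0.295% of counts in treated and 0.548%, 0.463% and 0.481% in control libraries. Here the groups did not overlap, and with library size as the only scaling edgeR called Actb lower, at a log2 fold change of −0.65 and an adjusted p of 0.00552. By mean FPKM, a level per length, Actb ranked 84th of all genes in treated and 11th in control cells, although its FPKM averaged 1747 ± 463 in treated and 1253 ± 195 in control libraries (SD, n = 3 each). The FPKM values as deposited include a scaling besides library size, and on their log2 scale with 1 added, limma gave a log2 fold change of 0.46 and an adjusted p of 0.138.

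Actg1 (chr11:120345690-120348542, minus strand), the other cytoplasmic actin, differs from Actb in only a few residues near its start. It had 966, 1185 and 802 CPM in treated and 645, 433 and 556 CPM in control libraries. Every treated library was above every control library. The log2 fold change was 0.85 ± 0.21 (SE), with an adjusted p of 0.00295 by edgeR. With a gene length correction it was 0.31, with an adjusted p of 0.198, and its share of counts overlapped between the groups, at 0.0679% ± 0.0088 in treated and 0.0777% ± 0.0105 in control libraries (SD, n = 3 each).

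All 3 tropomyosins among the members rose on the TMM scale, although Tpm1 and Tpm4 were called lower with ribosomal protein genes held equal. Tpm2 (chr4:43514711-43523765, minus strand), which encodes β-tropomyosin, had 242, 281 and 180 CPM in treated and 43.0, 35.4 and 36.7 CPM in control libraries. The lowest treated library was several times the highest control library. Its log2 fold change of 2.61 ± 0.19 (SE), 6.11-fold with an adjusted p of 9.29e-07 by edgeR, lay above that of 94.4% of genes tested.

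Tpm1 (chr9:67022590-67049406, minus strand), which encodes α-tropomyosin and yields many splice forms, had 712, 641 and 600 CPM in treated and 220, 187 and 195 CPM in control libraries. The groups stood well apart. The log2 fold change was 1.70 ± 0.16 (SE), with an adjusted p of 3.38e-06 by edgeR. Tpm4 (chr8:72134975-72153142, plus strand), a tropomyosin of non-muscle cells, had 923, 878 and 878 CPM in treated and 466, 435 and 443 CPM in control libraries. Replicates lay closer together than for any other tested member. The log2 fold change was 1.00 ± 0.15 (SE), with an adjusted p of 0.000108 by edgeR, but it was 0.23, with an adjusted p of 0.195, under the gene length correction, and −0.05 by library size alone.

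Tagln2 (chr1:172500047-172507380, plus strand) encodes transgelin-2, an actin-binding protein of the calponin family found in many cell types outside muscle. It had 1099, 1159 and 816 CPM in treated and 479, 337 and 381 CPM in control libraries. The lowest treated value lay above the highest control value. The log2 fold change was 1.36 ± 0.20 (SE), with an adjusted p of 9.44e-05 by edgeR.

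Vim (chr2:13573927-13582826, plus strand) encodes vimentin. It had 6511, 7203 and 5527 CPM in treated and 2914, 2182 and 2342 CPM in control libraries, the highest treated CPM of the 10 members, although per length Actb was higher. Its treated libraries all lay above the control libraries, both on this scale and as a share of counts, which was 0.444% ± 0.029 in treated and 0.354% ± 0.031 in control libraries (SD, n = 3 each). The log2 fold change was 1.37 ± 0.20 (SE), with an adjusted p of 9.89e-05 by edgeR. By mean FPKM it ranked 111th of all genes in treated and 46th in control cells, at 1381 ± 221 FPKM in treated and 504 ± 77 FPKM in control libraries.

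The smooth muscle members were close to undetected in both groups, and no level of theirs exceeded 1.12 FPKM in any library, whereas the tested members had at least 11.8 FPKM. Acta2 (chr19:34241090-34255336, minus strand), the actin of smooth muscle and of myofibroblasts, had 3, 11 and 7 reads in treated and 2, 1 and 1 reads in control libraries. The ratio of treated to control was 5.27 by total count, with an exact 95% interval of 1.78 to 21.1, and 10.9 by TMM size, with an interval of 3.66 to 43.5; these intervals cover counting error only. Tagln (chr9:45929619-45936058, minus strand), the smooth muscle transgelin also called SM22α, had 0, 0 and 3 reads in treated and 4, 4 and 5 in control libraries. The ratio was 0.232, with an interval of 0.0424 to 0.843, by total count, and 0.477, with an interval of 0.0873 to 1.74, by TMM size. Myl9 (chr2:156775420-156781658, plus strand), the regulatory light chain of smooth muscle and non-muscle myosin, had 14, 0 and 0 reads in treated and 0, 2 and 0 in control libraries. All of its treated reads came from treated replicate 1, and a count of 0 allows a level of up to 0.119 to 0.265 CPM, depending on the library. Without the filter on low counts edgeR gave an adjusted p of 0.0144 for Acta2, 0.503 for Tagln and 0.0302 for Myl9.

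The sources used here do not state if counting was by strand or where reads matching several copies went, so values within the actin and tropomyosin families are uncertain to that extent. An actin pseudogene listed as Actg-ps1 had 3 reads in treated and 12 in control libraries, against 34858 in treated and 40264 in control libraries for Actg1. Tpm3-rs7, a further gene of the tropomyosin family, had 3004 in treated and 2767 in control libraries. The transcripts Gm16091 and Gm26586 on the other strand of Tpm4 had 36 and 8 reads in treated and 132 and 30 in control libraries, against 31885 in treated and 33101 in control libraries for Tpm4. Tagln overlaps Pcsk7, with 461 reads in treated and 1462 in control libraries, and Gm48529, with 18 in treated and 30 in control libraries, which are far more than the reads of Tagln itself.

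Ratios between members within a library do not depend on how the libraries were scaled, though those between genes of unlike length depend on a length correction. For Actb and Actg1, of nearly equal length at 2679 and 2658 bases, the ratio of FPKM was 4.29, 4.91 and 4.58 in treated and 6.30, 6.95 and 5.91 in control libraries. The Vim to Actb ratio was 0.880, 0.694 and 0.843 in treated and 0.402, 0.406 and 0.399 in control libraries. Neither ratio overlapped between the groups, and the controls for Vim against Actb were nearly identical to each other. Treated minus control, the difference of log2 ratios was −0.47 for Actb over Actg1 and 0.99 for Vim over Actb.

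Among tropomyosins, the Tpm2 to Tpm1 ratio of FPKM was 0.758, 0.978 and 0.669 in treated and 0.435, 0.423 and 0.421 in control libraries. The Tpm4 to Tpm1 ratio was 3.82, 4.04 and 4.31 in treated and 6.22, 6.87 and 6.70 in control libraries. Neither ratio overlapped between the groups, and treated minus control the log2 ratio differed by 0.89 for Tpm2 over Tpm1 and by −0.70 for Tpm4 over Tpm1. These genes differ in length, at 6485 bases for Tpm1, 2909 for Tpm2 and 2203 for Tpm4, and the trend of fold change with gene length described below touches their ratios and shares. With the correction for it, log2 fold changes were 2.22 for Tpm1, 2.19 for Tpm2 and 0.23 for Tpm4, so that Tpm2 no longer stood above Tpm1 and Tpm4 fell further behind. As a share of the FPKM of these 3 tropomyosins, Tpm4 made up 69.2% ± 2.6 in treated and 82.2% ± 0.83 in control libraries (SD, n = 3 each). Tpm1 made up 17.1% ± 0.73 in treated and 12.5% ± 0.52 in control libraries. Tpm2 made up 13.7% ± 2.5 in treated and 5.32% ± 0.31 in control libraries. Tpm3, a tropomyosin gene that is not a member, is left out of these shares. It averaged 966 ± 90 CPM in treated and 371 ± 42 in control libraries, a log2 fold change of 1.38. Each of the 6 ratios examined had an exact two-sided permutation p of 0.1, also after Benjamini-Hochberg adjustment, which is the smallest that 3 libraries against 3 can give. The remaining pair, Acta2 over Actb at 2.59 and Tagln2 over Tagln at 2.64 on the log2 scale, rest on the few reads of Acta2 and Tagln.

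**Figure D2:**
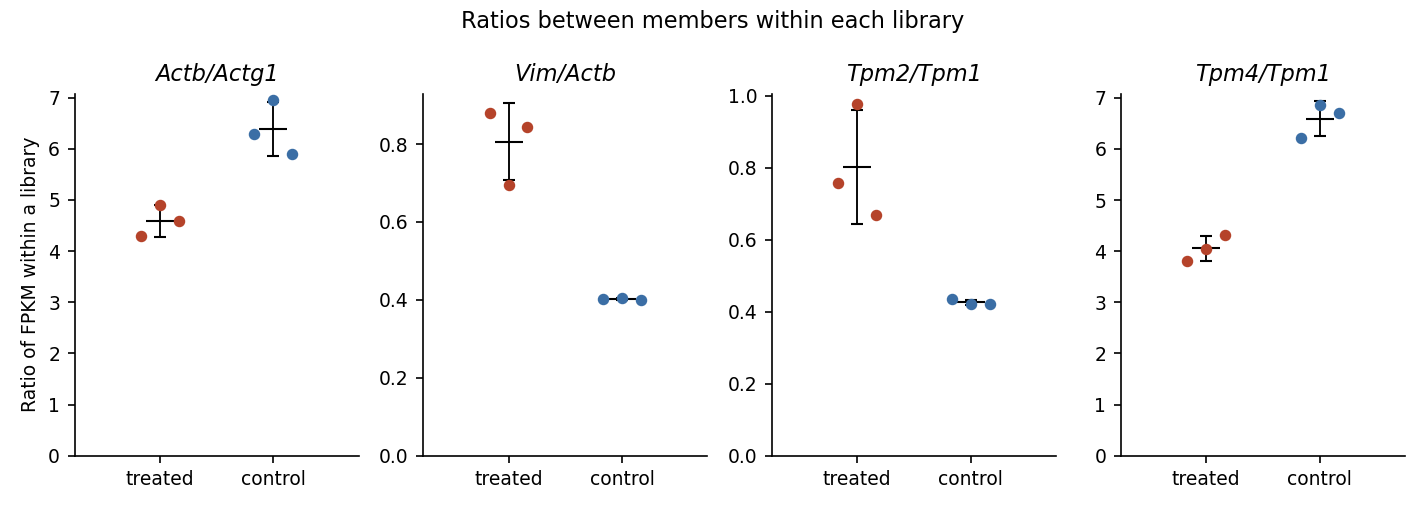
Ratio of FPKM within each library (linear axes from 0) for 4 pairs of members, treated on the left and control on the right, with the mean and SD of 3 libraries. No pair overlaps between the groups: Vim over Actb is 0.694 to 0.880 in treated and 0.399 to 0.406 in control libraries.

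The 10 members together took 0.936%, 1.13% and 0.996% of counts in treated and 1.19%, 1.01% and 1.05% in control libraries. The groups overlapped, with means of 1.02% ± 0.10 in treated and 1.08% ± 0.09 in control libraries (SD, n = 3 each) and an exact two-sided permutation p of 0.5. The planned test was that of all 10 members. Actb, the most abundant of them in control cells, averaged 0.316% of counts in treated and 0.497% in control libraries. Leaving it out therefore raises the difference by construction. Without Actb the difference, treated minus control, was 0.118 percentage points, from which no conclusion is drawn.

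Most member directions depended on the scaling. With library size alone, 4 of the 7 tested members were called higher (Tagln2, Tpm1, Tpm2 and Vim) and 1, Actb, lower, against 17.1% and 59.6% of all genes. With 80 ribosomal protein genes held equal instead, no member was called higher and 6 were called lower, all but Tpm2 at 0.18, against 1.84% and 82.4% of all genes. With 37 mitochondrially encoded genes held equal, 4 were called lower and none higher, against 77.8% and 2.51% of all genes, 80.3% in all. These scalings moved the median of all genes by −1.04, −2.39 and −2.15 on the log2 scale. A scaling shifts members and other genes nearly alike, so the members' median stayed 1.51 to 1.54 above that of all genes.

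**Figure D3:**
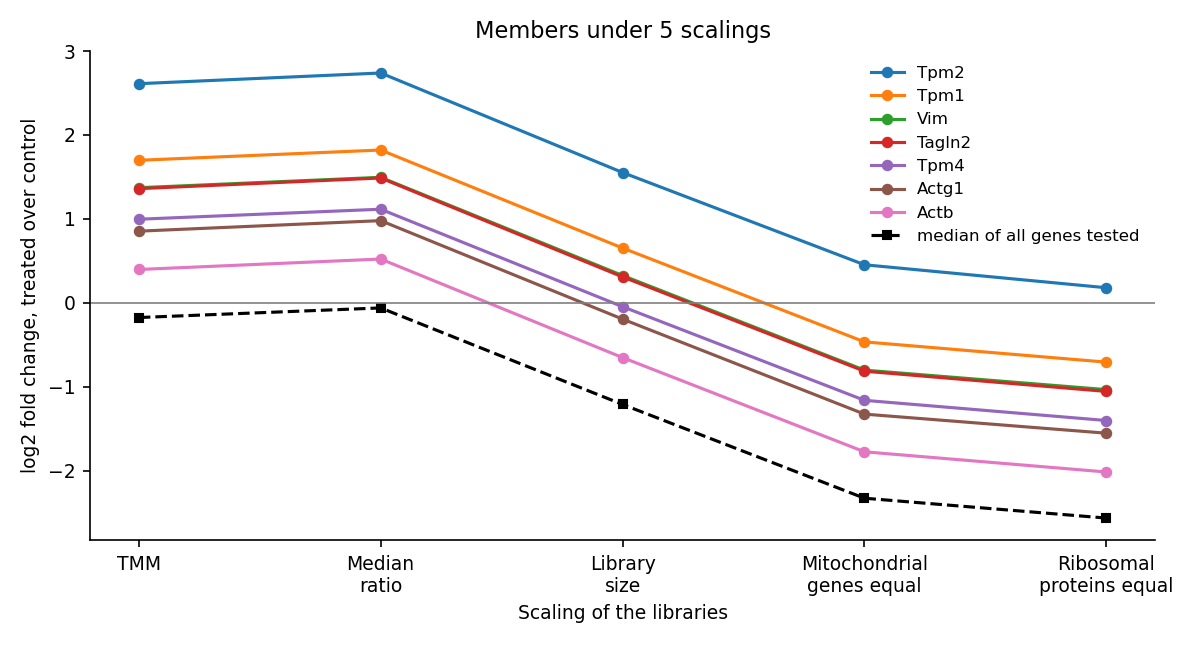
Log2 fold change, treated over control, of the 7 members tested (lines; Vim and Tagln2 nearly coincide) and the median of all genes tested (dashed) under 5 ways of scaling the libraries. Each scaling shifts the members and that median nearly alike, and all members but Tpm2 cross 0.

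Fold changes fell with gene length across all genes. The median log2 fold change was 1.33 for 2832 genes under 2000 bases, 0.48 for 2008 genes of 2000 to 3000, −0.25 for 3507 genes of 3000 to 5000 and −0.99 for 4943 genes of 5000 bases or more. Tagln2 (2082 bases), Tpm4 (2203), Actg1 (2658), Actb (2679) and Tpm2 (2909) belong to a class whose median was above 0, and Vim (4743) and Tpm1 (6485) to classes whose median was below 0. With an offset for this trend, the log2 fold change was 2.22 for Tpm1, 2.19 for Tpm2, 1.59 for Vim and 0.53 for Tagln2, each called higher, whereas Tpm4, Actg1 and Actb, at 0.23, 0.31 and −0.14, were not called. The offset called 28.9% of all genes higher and 39.5% lower, 68.4% in all. The members' median stood 0.78 above that of all genes in that fit.

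**Figure D4:**
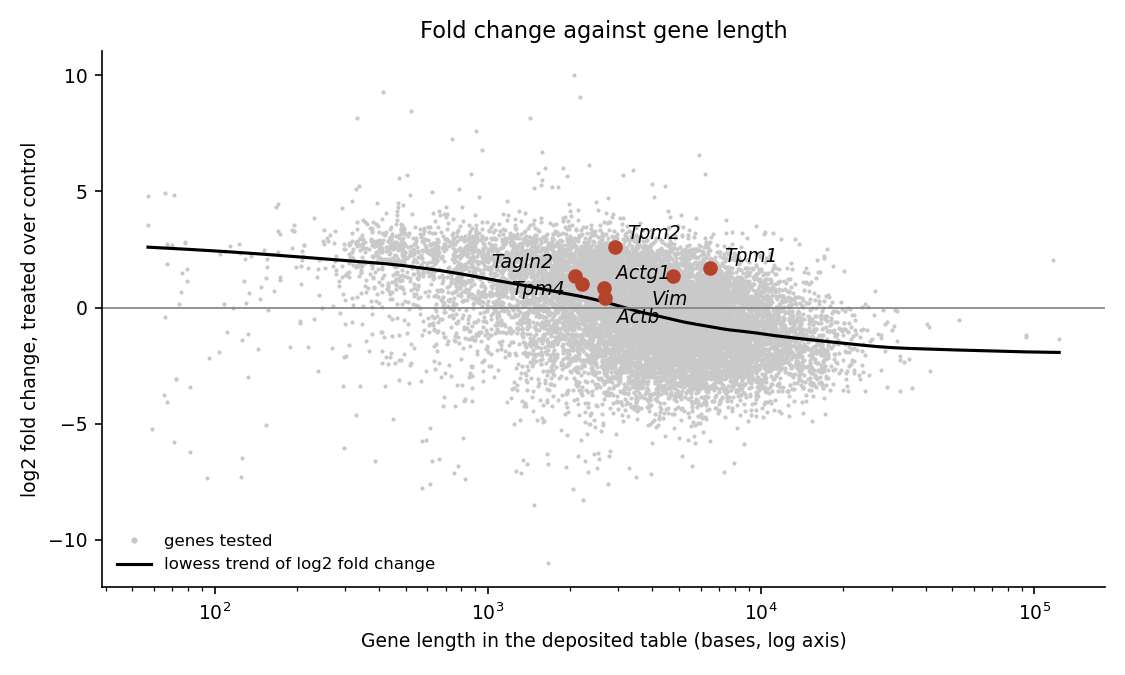
Log2 fold change, treated over control (TMM scale), against gene length in bases (log axis) for all genes tested (grey) with the 7 members tested (red) and the lowess trend (black). Tpm1, Tpm2 and Vim lie farthest above the trend, by 2.52, 2.49 and 1.89, and Actb lies closest to it, at 0.16.

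Other cytoskeletal genes, and the transcription factors Srf and its cofactors, were grouped into 6 lists of 128 symbols in all, without the members. Mrtfa and Mrtfb among them are second names of Mkl1 and Mkl2, so 126 symbols were found. Of 102 tested, 49 rose, 30 fell and 23 missed the threshold by edgeR on the TMM scale, against 34.6% of all genes tested called higher and 40.2% lower, and their median log2 fold change was 0.40, against −0.18 over all genes tested. By library size alone the split was 26 higher and 54 lower, against 17.1% and 59.6% of all genes tested. With ribosomal protein genes held equal it was 2 higher and 89 lower, against 1.84% and 82.4%. Such shares of all genes bear on the counts of each list below too. With the gene length correction the split was 54 higher and 22 lower, against 28.9% and 39.5%. The medians of the lists differed less after that correction, as given for each below; over all genes tested the median was then −0.25.

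The next list held other actin and actin-related genes and the ARP2/3 complex, which starts branched filaments. In it, 10 of 13 tested genes rose and 2 fell, with a median log2 fold change of 1.31. With ribosomal protein genes held equal, 0 were higher and 10 lower. These genes are short, with a median of 2742 bases, and with the gene length correction their median was 0.70, with 8 higher and 2 lower. Arpc3, a subunit of the complex, averaged 337 ± 57 CPM in treated and 60.6 ± 6.9 in control libraries, a log2 fold change of 2.48 ± 0.18 (SE). Arpc1b, another subunit, averaged 2886 ± 456 CPM in treated and 553 ± 63 in control libraries, a log2 fold change of 2.38 ± 0.20, though it was −0.03 with ribosomal protein genes held equal. Actr3, the gene of the actin-related protein Arp3, was among the members of this list that fell, with 73.2 ± 6.9 CPM in treated and 143 ± 9.6 in control libraries. So was Acta1, the skeletal muscle actin, at −0.71 ± 0.21 (SE) on the log2 scale with an adjusted p of 0.00843 by edgeR, or −1.84 with the length correction.

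Of 28 tested genes for monomer binding and filament turnover, 14 rose and 8 fell, with a median of 0.45, whereas 1 was higher and 22 lower with ribosomal protein genes held equal. With the gene length correction the median was 0.69, with 14 higher and 5 lower. Tmsb10, a thymosin that holds actin monomers, averaged 1408 ± 552 CPM in treated and 158 ± 31 in control libraries, a log2 fold change of 3.16 ± 0.30 (SE), or 1.85 with the length correction. Its relative Tmsb4x, at a log2 fold change of 3.29 or 2.07 with the length correction, was scarce, at 2.19 ± 1.02 CPM in treated and 0.22 ± 0.15 in control libraries. Ssh2, a phosphatase that activates cofilin, fell by 1.99 on the log2 scale, to 5.04 ± 1.06 CPM in treated against 20.1 ± 0.95 in control libraries. Coro1c, a coronin that binds filaments, fell by 1.43. With the length correction their log2 fold changes were −0.80 and −0.63.

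Of 17 tested genes of the myosin, tropomyosin and calponin list, 11 rose and 4 fell, with a median of 0.79, whereas 1 was higher and 14 lower with ribosomal protein genes held equal. With the gene length correction the median was 0.98, the highest of the 6 lists in that fit, with 11 higher and 3 lower. Myl6, the essential light chain of non-muscle and smooth muscle myosin, averaged 1802 ± 595 CPM in treated and 206 ± 35 in control libraries, a log2 fold change of 3.13 ± 0.26 (SE). Myl12a, a regulatory light chain, averaged 754 ± 141 CPM in treated and 129 ± 23 in control libraries, a log2 fold change of 2.55 ± 0.20. Ppp1r12a, the targeting subunit of myosin phosphatase, averaged 8.97 ± 3.41 CPM in treated and 44.8 ± 16.1 in control libraries and fell by 2.32 on the log2 scale, or by 1.62 with the length correction. Rock1, a kinase that acts on that subunit, averaged 3.34 ± 1.52 CPM in treated and 10.8 ± 6.2 in control libraries and fell by 1.69, with an adjusted p by edgeR of 0.00711, or 0.0517 without treated replicate 2.

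Of 27 tested crosslinking and adhesion genes 10 were higher and 10 lower, shares near those of all genes, with a median of 0.20. The split depended on the fit, with 2 higher and 18 lower under library-size scaling, 0 higher and 27 lower when ribosomal protein genes were made equal, and 15 higher and 6 lower with the gene length correction, where the median was 0.68. Csrp1 and Csrp2, LIM-domain proteins that bind the actin crosslinker α-actinin, rose by 1.85 and 1.45 on the log2 scale, or by 0.96 and 0.67 with the length correction. Vcl, which encodes vinculin of focal adhesions, had 7.51, 4.86 and 17.8 CPM in treated and 63.8, 65.2 and 65.1 CPM in control libraries. Treated replicate 3 had the most of the treated libraries, and the log2 fold change of −2.68 ± 0.38 (SE) was −3.43 without it and −1.97 with the length correction. Rdx, which encodes radixin and links filaments to the membrane, fell by 2.64.

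Of 9 tested intermediate filament genes and linkers other than Vim, 3 rose and 3 fell, shares near those of all genes. Under library-size scaling 2 were higher and 5 lower, when ribosomal protein genes were made equal 0 were higher and 8 lower, and with the gene length correction 4 were higher and 3 lower, where the median was 0.64, against 0.42 without it. Des, the desmin of muscle, averaged 79.7 ± 16.8 CPM in treated and 18.7 ± 3.7 in control libraries, and Krt14, a keratin, 10.6 ± 1.4 CPM in treated and 3.43 ± 0.65 in control libraries. Their log2 fold changes were 2.09 ± 0.21 and 1.63 ± 0.26 (SE), that of Krt14 being 0.64 with the length correction. Lmnb1, a lamin of the nuclear envelope, fell by 2.92 on the log2 scale, and Plec, which encodes plectin that ties vimentin to other filaments, fell by 1.70, or by 0.52 with the length correction.

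Of 8 tested genes in the list of serum response factor and its cofactors, 1 rose and 3 fell. Over all genes tested 34.6% were called higher and 40.2% lower. The list median was −0.23, against −0.18 over all genes, or −0.22 with the gene length correction, against −0.25. Under library-size scaling 0 were higher and 6 lower, and with ribosomal protein genes held equal 0 were higher and 8 lower. The gene length correction gave 2 higher and 3 lower. Srf itself averaged 123 CPM in treated and 104 CPM in control libraries, at a log2 fold change of 0.25 that was not called. Mkl1, which encodes a myocardin-related cofactor, had 7, 14 and 25 reads in treated and 1453, 1137 and 1233 reads in control libraries. Its treated libraries were all far below the controls, and its log2 fold change of −5.34 ± 0.32 (SE) was negative in every fit. Mkl2, the second such cofactor, fell by 2.70, at 2.13 ± 0.54 CPM in treated against 13.96 ± 0.69 in control libraries, and stood at −1.95 on the log2 scale with the length correction. Elk4, a factor that binds beside Srf, rose by 0.62 ± 0.16 (SE), with an adjusted p of 0.0049 by edgeR; by library size it stood at −0.41, and with no filter on low counts its call was lost.

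**Figure D5:**
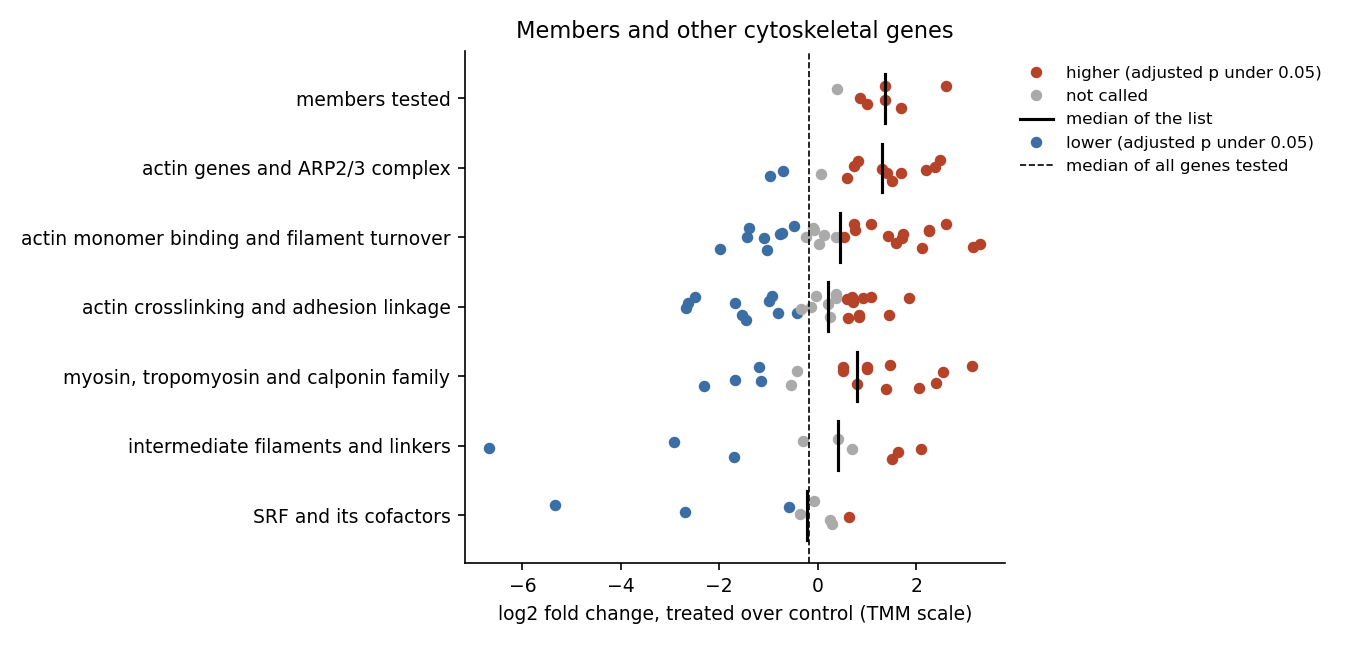
Log2 fold change, treated over control (TMM scale), of the members tested and of each tested gene in 6 lists of cytoskeletal genes; colour gives the edgeR call, the short bar the median of the list and the dashed line the median of all genes tested. The medians run from 1.31 for the other actin genes and the ARP2/3 complex to −0.23 for Srf and its cofactors, without a correction for gene length. The median is 1.36 for the members and −0.18 for all genes tested. With ribosomal protein genes held equal, 89 of the 102 list genes are called lower, against 82.4% of all genes tested.

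The genes whose pattern over the 6 libraries lay nearest to Actb and Vim were sought among 7854 genes with at least 10 CPM on average. Likeness was the root mean square distance between log2 CPM values centred on the control mean. This distance includes the change from control to treated, so the nearest genes have a like fold change by construction. Nearest to Actb were Aup1 at 0.0604, Sgta at 0.0731 and Vgf at 0.0772, with log2 fold changes of 0.34, 0.45 and 0.34. Nearest to Vim were Arhgdia at 0.0370, Babam1 at 0.0394 and Capzb at 0.0405, with log2 fold changes of 1.38, 1.41 and 1.42. Capzb encodes a subunit of the protein that caps actin filaments and belongs to the turnover list above.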

How the data were processed

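RNA was sequenced from 3 treated and 3 control L929 libraries, grouped by title and treatment label. The treatment text on the control samples repeats that of the treated ones. The authors deposited whole-number counts and FPKM per gene and gene lengths in bases (a value of another kind, per the file headers). Per the submitters' processing notes the build was GRCm38 and the tools included RSEM 1.3.1, HISAT2 2.1.0 and DESeq2 1.24.0, with no role given. The deposited FPKM equals the count per gene length times 1 constant per library, which, divided by the constant that library totals would give, came to 1.22 to 1.64 in treated and 0.635 to 0.719 in control libraries.

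Of 24708 genes with a count, filterByExpr (minimum count 10) left 13290. These were tested with edgeR 4.0.16 in R 4.3.3 (TMM, robust glmQLFit, glmQLFTest, treated against control, Benjamini-Hochberg over all genes tested, threshold 0.05). CPM values are TMM-scaled. Standard errors were taken as log2 fold change over the root of F. Ratios within a library added 0.5 to each count and, like shares, were compared by exact two-sided permutation tests. Ratios of low counts have exact 95% intervals, and the limit for a count of 0 is 3 reads; both cover counting error only. Replicates agreed across genes at r = 0.957 to 0.991, and no pair of libraries agreed within sampling noise.

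The members and lists were chosen with earlier results of these data known. Named genes are the members, those past the threshold with the greatest changes per list, and the 3 nearest to Actb and to Vim. Each list gave at most 2 per direction, averaging 1 CPM or more. Srf, Tpm3, Actr1a, Actr1b, Actr2 and Actg2 are named outside this rule. Their alternative values are not among the 750 counted below. Mrtfa and Mrtfb are listed as Mkl1 and Mkl2. Alternatives were other scalings, no filter or at least 1 CPM in 3 libraries, DESeq2 1.42.0, limma-voom and limma 3.58.1 on log2 FPKM of 10651 genes with 1 or 0.1 added, a replicate block, an offset from a lowess trend on gene length (span 0.3), a test of protein-coding genes alone, and the omission of each library in turn. Promoters are from RefSeq.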

Additional observations from a re-analysis of the deposited data

How the results depend on the processing

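Over the named genes, 671 of 750 alternative values kept their direction and side of the threshold, 23 lost the call, 10 gained one and 46 changed sign; for the members these were 120, 6, 4 and 17 of 147. With ribosomal protein genes held equal the members had log2 fold changes of −2.02 (Actb), −1.55 (Actg1), −1.06 (Tagln2), −0.71 (Tpm1), −1.40 (Tpm4) and −1.04 (Vim), and with mitochondrial genes equal −1.78, −1.33, −0.82, −0.47, −1.16 and −0.80. In the same 2 fits Csrp1 stood at −0.54 and −0.33, Csrp2 at −0.96 and −0.71, Des at −0.31 and −0.091, Krt14 at −0.78 and −0.54, Elk4 at −1.76 and −1.52, Aup1 at −2.06 and −1.83, Sgta at −1.97 and −1.72, Vgf at −2.05 and −1.84, Arhgdia at −1.03 and −0.79, Babam1 at −0.999 and −0.76 and Capzb at −0.99 and −0.75, and Arpc1b at −0.034 in the first. By library size alone Actb was −0.65, Actg1 −0.19, Tpm4 −0.047, Elk4 −0.41, Aup1 −0.70, Sgta −0.60 and Vgf −0.70. The sign changes under these scalings follow from the shift of all genes; the gene length offset also gave −0.14 for Actb and −0.044 for Vgf. Actb was called higher with upper-quartile factors (0.56), DESeq2 (0.52) and protein-coding genes only (0.53), and the cause was not tested. Elk4 lost its call without the filter. The share of counts of the members, treated minus control, was 0.118 without Actb, which carries the difference by construction.

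Calls over all genes were 4604 higher and 5337 lower under TMM, 2276 higher by library size, 244 higher and 10954 lower with ribosomal protein genes equal, and 334 and 10333 with mitochondrial genes equal. Called members numbered 1 lower by library size, 0 higher and 6 lower with ribosomal protein genes equal, and 0 and 4 with mitochondrial genes equal. Over the lists the counts were 26 and 54, 2 and 89, and 2 and 80. Calls higher made up 46.3% of all calls under TMM, 22.3% by library size, 2.18% and 3.13% in the 2 fits with genes held equal.

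Leaving out 1 library gave 4125 to 4564 genes higher and 4928 to 5737 lower, 6 to 7 members higher and 0 lower, and 46 to 50 list genes higher and 27 to 35 lower. The ratio differences ran from −0.53 to −0.41 for Actb over Actg1, 0.93 to 1.10 for Vim over Actb, 0.74 to 1.02 for Tpm2 over Tpm1, −0.75 to −0.66 for Tpm4 over Tpm1, 2.36 to 2.97 for Acta2 over Actb and 2.11 to 3.66 for Tagln2 over Tagln, and the summed share from −0.118 to −0.011. With 2 libraries against 3 the smallest exact p is 0.2. Tagln2 over Tagln has no value without the added count, since Tagln had 0 reads in some libraries.

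Same-numbered libraries correlated at 0.220, −0.137 and 0.029 in their deviations from the group means. Differently numbered pairs ran from −0.377 to 0.383. With 3 libraries per group such values cannot show whether same-numbered libraries share a culture or batch, which the labels do not say. With the replicate block, 4450 genes were higher and 5411 lower, 6 members were higher, Actb was 0.38, and with the length offset as well Actb was −0.15 and Vgf −0.039.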
